A study of Mus musculus with 15 samples.

Results

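The 34 genes described here make up the NRF2 and glutathione antioxidant system of the mouse submandibular gland: the regulators Nfe2l2 and Keap1 and the enzymes of glutathione, thioredoxin, peroxiredoxin, superoxide and NADPH metabolism. They were chosen by symbol from a list of known pathway genes, not by their values, and all 34 were found among the 21013 gene symbols of the count table. All 34 passed the filter on low counts, and the lowest count of any of them in any library was 16.

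RNA was sequenced in bulk from the submandibular gland of wild-type male C57BL/6 mice aged 8 to 10 weeks, in 5 groups of 3 libraries. IR_iEV_4d and IR_iEV_30d glands received 15 Gy at the gland region and then iEVs, injected into the gland every week from day 1, and were taken on day 4 or day 30. IR_4d and IR_30d glands received the same dose alone and were taken on the same days, and NT glands were left untreated. What iEV stands for is not given in the labels, although the series is titled for extracellular vesicles of mesenchymal stem cells. No group was injected with vehicle or given iEVs without irradiation, so the injection and the iEVs cannot be told apart. The labels do not give the day on which NT glands were taken, so age at collection may differ from that of irradiated glands. They do not say whether each library came from its own mouse, so the p-values measure the spread between these libraries, which may be partly technical.

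NRF2, the protein made from Nfe2l2, is a transcription factor that is held in the cytoplasm and marked for degradation by KEAP1 until oxidants or electrophiles modify KEAP1. NRF2 then enters the nucleus, pairs with small MAF proteins at antioxidant response elements and raises genes for glutathione synthesis, quinone reduction, thioredoxin recycling and conjugation. Because this control acts mainly on the protein, the level of Nfe2l2 RNA is not a measure of NRF2 activity. Ionizing radiation produces reactive oxygen species, which superoxide dismutases, catalase, peroxidases and peroxiredoxins remove.

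The core antioxidant response element was searched as TGACNNNGC and its reverse complement GCNNNGTCA in RefSeq promoter windows of build GRCm38.p6, each 250 bases before to 50 bases after a start site. Of the 34 genes, 28 had a window, and 9 of these (32.1%) held the motif, against 14.0% of the 27025 genes with a window. The 6 without a window, Gclc, Gsr, Gsta4, Hmox1, Prdx6 and Sod3, were not searched. In 7 of the 9 genes the motif lay before the start (G6pdx, Gclm, Mgst1, Nfe2l2, Prdx1, Sod1 and Txnrd1), and in Pgd and Srxn1 it lay after it. The stretches around the motif are given for Nfe2l2, the regulator, and for 3 genes described under the iEV comparison on day 4, with the motif in capitals, on the strand of the gene, 5′ to 3′.
Nfe2l2: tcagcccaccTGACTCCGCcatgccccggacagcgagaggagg
Txnrd1: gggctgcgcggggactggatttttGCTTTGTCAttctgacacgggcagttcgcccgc
Mgst1: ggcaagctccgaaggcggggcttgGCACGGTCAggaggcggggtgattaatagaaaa
Prdx1: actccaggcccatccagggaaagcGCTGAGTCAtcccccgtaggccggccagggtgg
The Nfe2l2 stretch lies at chr2:75704871-75704913 on the minus strand, with the motif 240 to 232 bases before the start. The Txnrd1 stretch lies at chr10:82859090-82859146 on the plus strand, with the motif 92 to 84 bases before 1 of its 3 annotated starts. The Mgst1 stretch lies at chr6:138140447-138140503 on the plus strand, with the motif 56 to 48 bases before 1 of 2 starts. The Prdx1 stretch lies at chr4:116685442-116685498 on the plus strand, with the motif 133 to 125 bases before the start. A match of letters does not show that a factor binds there, and no match says nothing about a factor.

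Levels are given in CPM, each count relative to the scaled size of its library. Each library held 29082798 to 52201098 counts. The libraries carried unequal amounts of RNA of bordering tissue. The mean log2 CPM of 6 sublingual gland markers ran from 1.52 to 7.06 in IR_iEV_4d, from 1.44 to 7.78 in IR_4d, from -0.45 to 6.72 in IR_iEV_30d, from -0.57 to 1.29 in IR_30d and from -1.23 to 4.75 in NT libraries. It was above 2 in 6 libraries: IR_iEV_4d replicates 2 and 3, IR_4d replicates 1 and 2, IR_iEV_30d replicate 2 and NT replicate 1. For 6 adipocyte markers the range was 2.02 to 5.16 in IR_iEV_4d, -0.96 to 3.71 in IR_4d, -2.24 to 0.41 in IR_iEV_30d, 0.20 to 1.68 in IR_30d and -1.72 to 1.09 in NT libraries. For 6 parotid markers it was 4.13 to 5.60 in IR_iEV_4d, 1.28 to 5.28 in IR_4d, 0.21 to 4.08 in IR_iEV_30d, 0.71 to 2.84 in IR_30d and -0.50 to 0.71 in NT libraries. Mean levels of submandibular gland markers were high in every library, at 11.2 or more for 5 granular convoluted tubule markers and 7.34 or more for 5 acinar markers. The acinar marker Smgc was uneven, from 0 CPM in IR_4d replicate 3 to 48.6 CPM in IR_4d replicate 1.

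Per kilobase of transcript, Gpx1 had the highest level of the 34 genes and Nqo1 the lowest. Gpx1, the cytosolic glutathione peroxidase, averaged 229.7 CPM per kb over the 15 libraries. It was followed by Taldo1, a transaldolase of the pentose phosphate pathway, at 113 CPM per kb and by Sod1, the cytosolic superoxide dismutase, at 99.6 CPM per kb. At the other end stood Sod3, the extracellular superoxide dismutase, at 0.842 CPM per kb and Nqo1, a quinone reductase used as a marker of NRF2 activity, at 0.679 CPM per kb. The ranges of Gpx1 and Taldo1 did not overlap, while those of many neighbours in the middle of the order did. Nfe2l2 averaged 29.9 and Keap1 14.7 CPM per kb. Between the lowest and the highest of the 15 libraries the CPM differed by less than 1.5-fold for 17 of the 34 genes and by more than 3-fold for 5 of them, Nqo1, Gpx2, Gpx3, Sod3 and Mgst1.

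**Figure D1:**
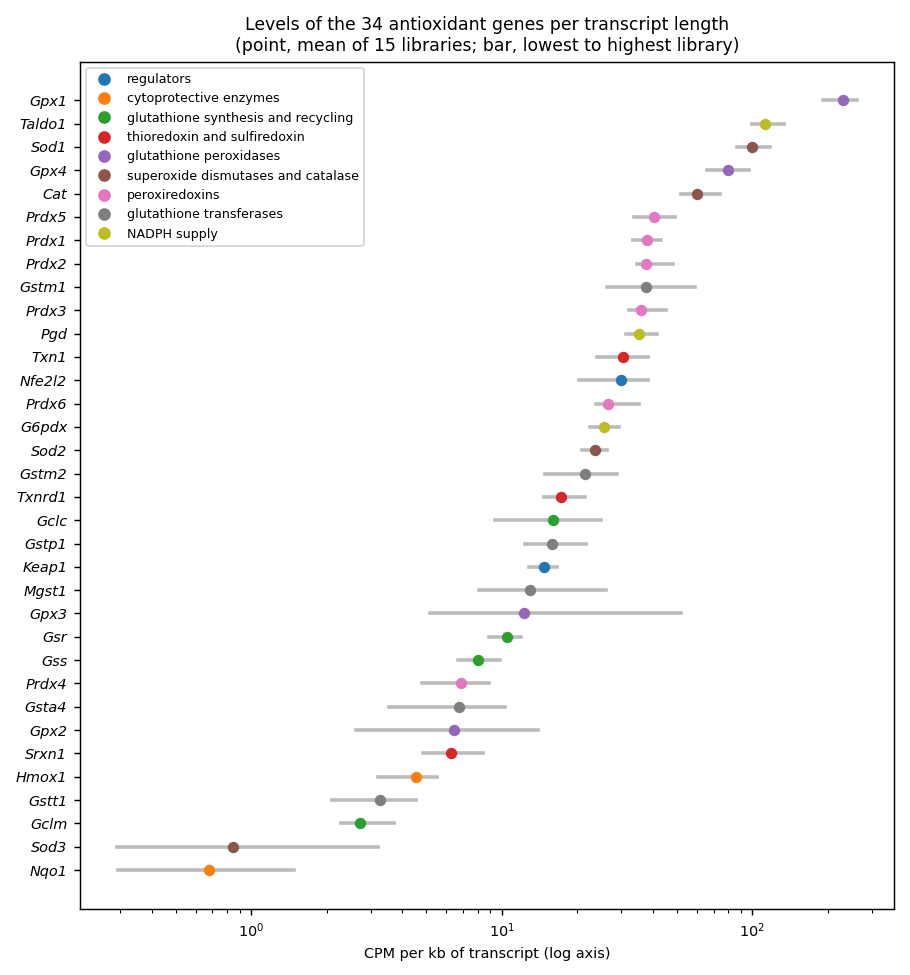
Level of each of the 34 genes in CPM per kb of its longest protein-coding transcript, on a log axis, coloured by role. Points are means of 15 libraries and bars run from the lowest to the highest library, so that Gpx1 leads at 229.7, Nqo1 closes the order at 0.679, and the widest bars belong to Sod3 and Gpx3.

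Against NT, irradiation moved 2 of the 34 genes past the threshold on each day, the same 2, Nfe2l2 up and Gsta4 down. That is 5.88% of the genes, against 1.4% of all 16042 genes tested on day 4 and 4.48% on day 30. A gene counts as called at an adjusted p under 0.05 in edgeR's quasi-likelihood test with Benjamini-Hochberg adjustment over all genes tested. The other 32 genes were called in none of the 8 comparisons. The median log2 change over the 34 genes was -0.02 in IR_4d and 0.02 in IR_30d, each against NT, and over all genes it was -0.0032 and -0.0038 in the same comparisons. All comparisons with NT use the same 3 NT libraries.

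Nfe2l2 was highest 4 days after irradiation alone. It had 84.3, 79.1 and 78.5 CPM in IR_iEV_4d, 86.8, 95.2 and 88.8 CPM in IR_4d, 71.5, 67.9 and 70.2 CPM in IR_iEV_30d, 71.7, 73.0 and 72.9 CPM in IR_30d and 50.2, 60.2 and 58.5 CPM in NT libraries. All 12 irradiated libraries lay above the highest NT library, and all 6 libraries of day 4 lay above all 6 of day 30. In IR_4d it rose over NT by a log2 change of 0.68 ± 0.08 (SE, n = 3 each; edgeR adjusted p = 3.7e-05), a call that held in all 14 alternative settings. In IR_30d it rose over NT by 0.37 ± 0.08 (edgeR adjusted p = 0.00933). Without the 6 libraries high in sublingual markers that day 30 change was 0.27 and was not called (edgeR adjusted p = 0.137).

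With iEVs, Nfe2l2 was also called over NT on day 4 but not on day 30. In IR_iEV_4d it rose over NT by 0.52 ± 0.08 (edgeR adjusted p = 0.000825). It was the only gene of the 34 called there, 2.94% of them against 2.31% of all genes. Of the 34 log2 changes there, 28 were positive (82.4%, against 48.4% of all genes). Their median was 0.20, against -0.011 over all genes. Unadjusted, 10 of the 34 had an edgeR p under 0.05, against 2666 of all 16042 genes. In IR_iEV_30d the Nfe2l2 change against NT was 0.31 ± 0.08 (edgeR adjusted p = 0.0565). No gene of the 34 was called in that comparison, where 1.1% of all genes were. An unadjusted p under 0.05 was reached by 5 of them, against 2077 of all 16042 genes. DESeq2 called 1 of the 34, against 410 of 15285 genes. The gene with the next lowest p there, Sod1, had a log2 change of 0.26 ± 0.08 (edgeR adjusted p = 0.191).

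The 2 days of irradiation alone were also set against each other. Nfe2l2 fell in IR_30d against IR_4d, by 0.32 on the log2 scale (SE 0.08, edgeR adjusted p = 0.0176), and was again the only gene of the 34 called, 2.94% against 6.81% of all genes. The call was lost when IR_4d replicate 2 or any 1 of the 3 IR_30d replicates was left out, with log2 changes of -0.32 to -0.27 and adjusted p between 0.0548 and 0.109 in edgeR. With the 6 sublingual-rich libraries left out, IR_4d kept only replicate 3, and the change was -0.30.

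Keap1, the adaptor that targets NRF2 for degradation, kept a narrow range. It had 53.5, 59.9 and 55.6 CPM in IR_iEV_4d, 56.4, 54.7 and 53.2 CPM in IR_4d, 48.4, 48.6 and 54.6 CPM in IR_iEV_30d, 56.1, 51.0 and 52.3 CPM in IR_30d and 47.4, 57.1 and 46.4 CPM in NT libraries. NT replicate 2 lay above all 3 libraries of IR_4d, so the groups overlapped. The log2 change against NT was 0.12 ± 0.09 in IR_4d and 0.08 ± 0.09 in IR_30d, and the lowest adjusted p of Keap1 in the 8 edgeR comparisons was 0.371. Keap1 overlaps another gene on the opposite strand, and the strand setting of the counting is not given in the sources used here.

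Gsta4, a glutathione transferase that conjugates 4-hydroxynonenal from lipid peroxidation, went the other way. It had 8.48, 6.62 and 8.13 CPM in IR_iEV_4d, 5.03, 6.46 and 4.47 CPM in IR_4d, 7.04, 5.48 and 7.68 CPM in IR_iEV_30d, 3.47, 4.22 and 4.18 CPM in IR_30d and 10.0, 8.08 and 9.78 CPM in NT libraries. All 6 libraries of irradiation alone lay below the lowest NT library, and each iEV group lay wholly above the irradiated group of its day. Against NT it fell by 1.23 on the log2 scale in IR_30d (SE 0.18, edgeR adjusted p = 0.000479), which held in all 14 alternative settings.

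On day 4 the estimate for Gsta4 was nearer to 0 and its call less stable. In IR_4d it fell against NT by 0.80 on the log2 scale (SE 0.17, edgeR adjusted p = 0.0226). That call was lost in 4 of 6 fits that left out 1 library, those without NT replicate 1 or 3 or IR_4d replicate 1 or 3, with log2 changes of -0.76 to -0.70 and adjusted p up to 0.138 in edgeR. With sublingual and adipocyte levels as covariates the change was -0.65 and was not called (edgeR adjusted p = 0.245). With the 6 libraries high in sublingual markers left out, IR_4d kept only replicate 3, and the change was -1.02, larger in size but not called (edgeR adjusted p = 0.103). Between IR_30d and IR_4d the log2 change was -0.43 ± 0.18 (edgeR adjusted p = 0.181).

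**Figure D2:**
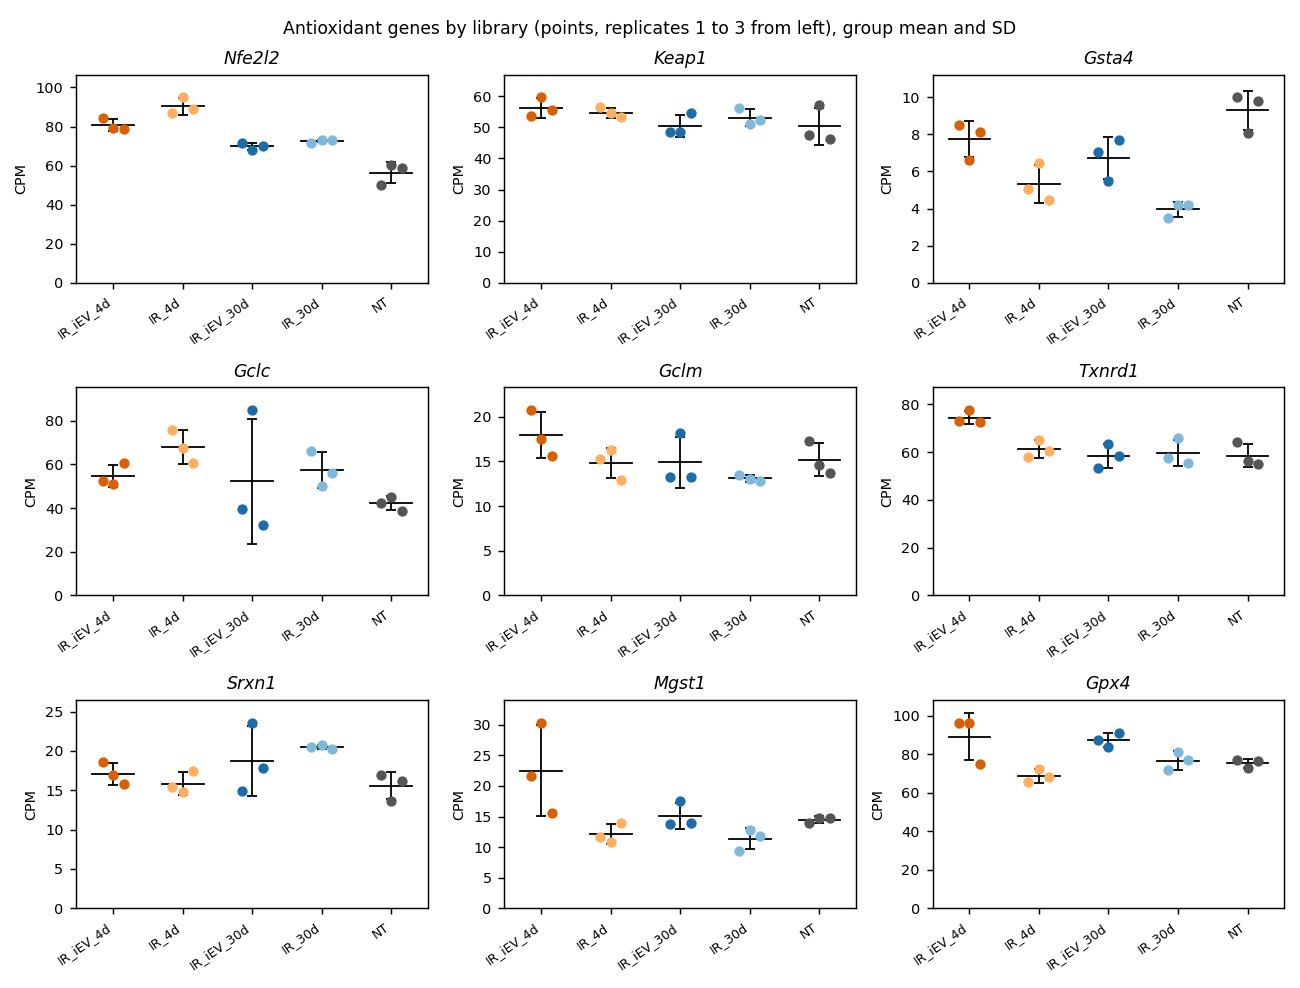
CPM of 9 of the genes in each library, in the order IR_iEV_4d, IR_4d, IR_iEV_30d, IR_30d and NT, with points for replicates 1 to 3 and lines for the group mean ± SD (n = 3). Nfe2l2 lies between 67.9 and 95.2 CPM in the irradiated libraries and at or below 60.2 CPM in NT, Gsta4 is lowest in IR_30d, and 1 Gclc library of IR_iEV_30d stands at 84.9 CPM.

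Nqo1 and Hmox1, both classical targets of NRF2, were not called against NT after irradiation. Nqo1 had 2.29, 1.45 and 1.61 CPM in IR_iEV_4d, 0.710, 0.785 and 0.559 CPM in IR_4d, 0.455, 1.28 and 0.797 CPM in IR_iEV_30d, 0.664, 1.06 and 0.649 CPM in IR_30d and 1.58, 1.10 and 0.832 CPM in NT libraries. The IR_4d libraries lay below all NT libraries, with a log2 change of -0.76 ± 0.40 (edgeR adjusted p = 0.493), and in IR_30d the change was -0.55 ± 0.39 (edgeR adjusted p = 0.564). Hmox1, the haem oxygenase that breaks haem down to biliverdin, had 8.32, 6.49 and 7.45 CPM in IR_iEV_4d, 8.31, 7.34 and 5.03 CPM in IR_4d, 5.48, 7.78 and 6.45 CPM in IR_iEV_30d, 6.37, 7.57 and 7.11 CPM in IR_30d and 8.68, 7.61 and 6.73 CPM in NT libraries. Its groups overlapped throughout, and its lowest adjusted p in the 8 edgeR comparisons was 0.623.

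The 2 subunits of glutamate-cysteine ligase, the rate-limiting enzyme of glutathione synthesis, had unlike patterns. Gclc, the catalytic subunit, had 52.5, 51.0 and 60.4 CPM in IR_iEV_4d, 75.7, 67.5 and 60.4 CPM in IR_4d, 39.7, 84.9 and 32.2 CPM in IR_iEV_30d, 66.2, 49.9 and 56.2 CPM in IR_30d and 42.5, 45.1 and 38.7 CPM in NT libraries. All IR_4d and IR_30d libraries lay above all NT libraries. The log2 change against NT was 0.69 ± 0.28 in IR_4d (edgeR adjusted p = 0.358) and 0.45 ± 0.28 in IR_30d (edgeR adjusted p = 0.506).

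With each comparison fitted on its own groups alone, Gclc was called in both comparisons with NT, at an edgeR adjusted p of 0.00213 on day 4 and 0.0271 on day 30. The log2 changes in those fits were 0.69 and 0.44. The library at 84.9 CPM, IR_iEV_30d replicate 2, also held a sublingual level of 6.72, against -0.45 and -0.15 in replicates 1 and 3, and the part of that tissue in the Gclc level was not tested. Gclm, the modifier subunit, had 20.8, 17.5 and 15.6 CPM in IR_iEV_4d, 15.3, 16.3 and 13.0 CPM in IR_4d, 13.3, 18.2 and 13.3 CPM in IR_iEV_30d, 13.5, 13.1 and 12.8 CPM in IR_30d and 17.3, 14.6 and 13.7 CPM in NT libraries. Gclm overlapped between IR_4d and NT and lay just below NT in IR_30d, with log2 changes of -0.03 ± 0.14 and -0.21 ± 0.14 in those comparisons and a lowest adjusted p of 0.425 in the 8 edgeR comparisons.

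Among the thioredoxin genes, Txnrd1, the cytosolic thioredoxin reductase, had 73.0, 77.7 and 72.6 CPM in IR_iEV_4d, 58.1, 65.2 and 60.3 CPM in IR_4d, 53.3, 63.4 and 58.4 CPM in IR_iEV_30d, 57.7, 65.8 and 55.6 CPM in IR_30d and 64.1, 56.4 and 55.1 CPM in NT libraries. The IR_iEV_4d libraries lay above all 12 others, while the remaining groups overlapped. Its log2 change against NT was 0.06 ± 0.09 in IR_4d and 0.03 ± 0.09 in IR_30d, and in IR_iEV_4d it was 0.35 ± 0.09 (edgeR adjusted p = 0.0501). Srxn1, the sulfiredoxin that repairs over-oxidized peroxiredoxins, had 18.6, 17.0 and 15.8 CPM in IR_iEV_4d, 15.4, 14.7 and 17.4 CPM in IR_4d, 14.9, 23.6 and 17.8 CPM in IR_iEV_30d, 20.5, 20.7 and 20.2 CPM in IR_30d and 16.9, 13.6 and 16.1 CPM in NT libraries. IR_30d lay wholly above NT and IR_4d overlapped it, with log2 changes of 0.39 ± 0.14 (edgeR adjusted p = 0.133) and 0.02 ± 0.14 (edgeR adjusted p = 0.977) on days 30 and 4.

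None of the genes for glutathione peroxidases, superoxide dismutases and catalase was called against NT after irradiation. Gpx1 had 228, 249.6 and 205 CPM in IR_iEV_4d, 217, 224 and 242 CPM in IR_4d, 260.3, 233 and 281 CPM in IR_iEV_30d, 277, 277 and 281 CPM in IR_30d and 232, 259 and 226 CPM in NT libraries. IR_30d lay above all libraries of IR_4d and NT, and the lowest adjusted p of Gpx1 in the 8 edgeR comparisons, 0.0781, was that of IR_30d against IR_4d. Catalase, Cat, had 182, 162 and 150.0 CPM in IR_iEV_4d, 143, 139 and 135 CPM in IR_4d, 153, 159 and 177 CPM in IR_iEV_30d, 152, 194 and 149 CPM in IR_30d and 184, 140.1 and 139.7 CPM in NT libraries. NT replicate 1 stood above nearly all other libraries for Cat, and the lowest adjusted p was 0.259 in the 8 edgeR comparisons.

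The secreted glutathione peroxidase Gpx3 had the largest estimate against NT among these enzymes and was singled out after its values were seen. It had 30.9, 83.0 and 13.9 CPM in IR_iEV_4d, 15.0, 13.7 and 32.4 CPM in IR_4d, 10.9, 9.001 and 8.43 CPM in IR_iEV_30d, 11.0, 20.5 and 16.3 CPM in IR_30d and 10.6, 8.27 and 8.52 CPM in NT libraries. IR_4d and IR_30d lay wholly above NT, with log2 changes of 1.16 ± 0.58 (edgeR adjusted p = 0.489) and 0.81 ± 0.58 (edgeR adjusted p = 0.586). The IR_4d change was 0.66 without IR_4d replicate 3, the library at 32.4 CPM. With the 6 sublingual-rich libraries left out, that replicate alone stood for IR_4d, its spread taken from the other groups, and the change was 1.93 and was called (edgeR adjusted p = 0.0181).

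Gpx2 and Sod3 overlapped NT on both days. Gpx2, an epithelial glutathione peroxidase, had log2 changes of -0.73 ± 0.54 in IR_4d and -0.61 ± 0.54 in IR_30d, which turned to 0.035 and 0.15 without NT replicate 1. Sod3 had changes of 0.38 ± 0.45 in IR_4d and -0.45 ± 0.46 in IR_30d, and the IR_4d value turned to -0.53 with sublingual and adipocyte levels as covariates.

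Of the 6 peroxiredoxins, thiol peroxidases that use thioredoxin or glutathione, none was called. Prdx1 had 99.3, 95.7 and 90.3 CPM in IR_iEV_4d, 88.1, 88.3 and 82.9 CPM in IR_4d, 76.9, 95.3 and 84.8 CPM in IR_iEV_30d, 76.7, 85.1 and 81.5 CPM in IR_30d and 93.3, 86.4 and 81.7 CPM in NT libraries. NT overlapped every irradiated group for Prdx1, and its lowest adjusted p was 0.492 in the 8 edgeR comparisons. Prdx3, the mitochondrial peroxiredoxin, was the only other gene of the 34 besides Nfe2l2 for which all 12 irradiated libraries, from 50.4 to 67.1 CPM, lay above the NT libraries, from 47.4 to 50.3 CPM. The share of all genes with this pattern was not counted. Ephx1, Glrx3 and Blvrb, genes of the same pathways outside the 34, had it too. Prdx3 was singled out after its values were seen, and its lowest adjusted p in the 8 edgeR comparisons was 0.115. All 6 changes lay between -0.03 and 0.16 on the log2 scale in IR_4d against NT. In IR_30d against NT they lay between -0.31 and 0.13, the lowest being that of Prdx4, which lay wholly below NT there.

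Glucose-6-phosphate dehydrogenase (G6pdx), 6-phosphogluconate dehydrogenase (Pgd) and transaldolase (Taldo1) serve the pentose phosphate pathway, which supplies NADPH for glutathione and thioredoxin recycling. Taldo1 had 171, 183 and 149 CPM in IR_iEV_4d, 138, 162 and 165 CPM in IR_4d, 149, 150.1 and 176 CPM in IR_iEV_30d, 138, 145 and 135 CPM in IR_30d and 159, 139 and 142 CPM in NT libraries. For Taldo1 the irradiated groups overlapped NT, and the 3 changes in IR_4d against NT lay between -0.08 and 0.08 on the log2 scale. Pgd lay wholly above NT in IR_30d, with a log2 change of 0.22 (edgeR adjusted p = 0.183). In IR_iEV_30d Pgd lay wholly below IR_30d, with a change of -0.215 (edgeR adjusted p = 0.29), while Taldo1 lay wholly above it, with one of 0.18. G6pdx shares its locus with Ikbkg on the opposite strand.

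The groups did not overlap in 9 of the 34 genes between IR_4d and NT (26.5%, against 18.4% of all genes) and in 13 between IR_30d and NT (38.2%, against 23.2% of all genes). On day 30 these were 7 genes higher (20.6%, against 12.6% of all genes) and 6 lower (17.6%, against 10.7% of all genes), and 4 of the 6 lower ones were glutathione transferases, Gsta4, Gstm2, Gstt1 and Mgst1. Of the 4, Gsta4 alone was called. IR_30d libraries also stood apart in gland markers: the granular convoluted tubule level was 12.8 to 12.9 there, against 11.5 to 11.8 in NT libraries, and the macrophage level was 4.62 to 4.97, against 4.11 to 4.18. IR_4d libraries stood apart from NT too, with a lower macrophage level of 3.85 to 4.05. The level of 5 T cell markers was -3.70 to -3.16 in IR_4d, against -2.91 to -2.84 in NT libraries. The parotid level, given above, was wholly higher in IR_4d than in NT, while the granular convoluted tubule level overlapped. In bulk RNA, fewer cells of a type and less RNA per cell cannot be told apart, and the part of these shifts in the gene changes was not tested.

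**Figure D3:**
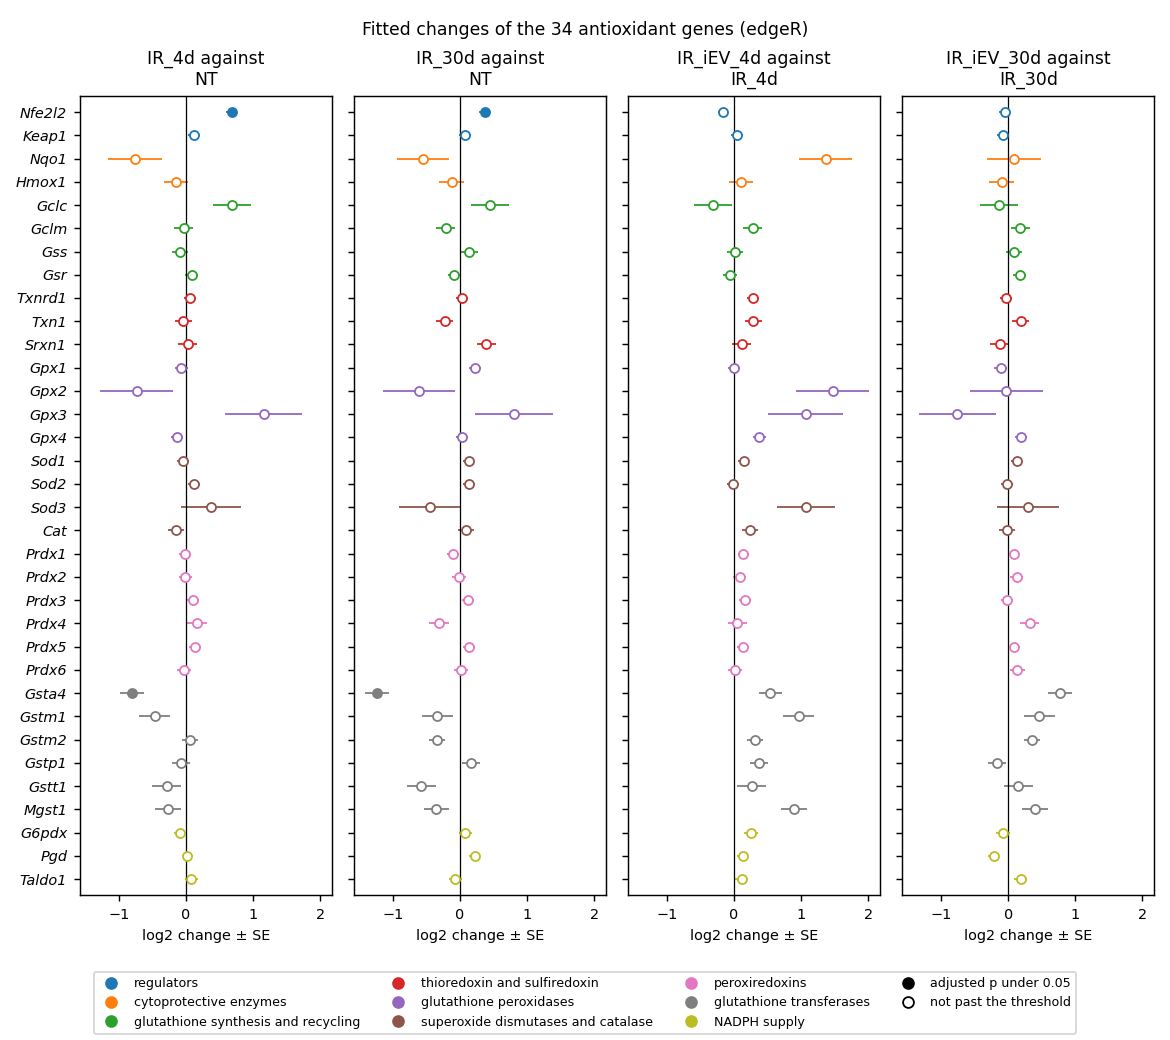
Log2 change ± SE of the 34 genes, coloured by role, in IR_4d and IR_30d against NT and in each iEV group against the irradiated group of its day, with filled points for adjusted p under 0.05. Only Nfe2l2 and Gsta4 are filled, in the comparisons with NT, and in IR_iEV_4d against IR_4d 29 of 34 points lie right of 0.

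Between IR_iEV_4d and IR_4d, most of the antioxidant genes were higher with iEVs, but none was called. The log2 change was positive for 29 of the 34 genes, against 49.2% of all genes, and the median was 0.15, against -0.0037 over all genes. The count and the median were chosen after the data were seen. Across the alternative settings the count ran from 26 to 31 and the median from 0.12 to 0.24, the highest being that without IR_iEV_4d replicate 3. edgeR called 0 of the 34 genes, where it called 0.0312% of all genes. An unadjusted p under 0.05 was reached by 13 of them, against 1093 of all 16042 genes. DESeq2 called 2, Gstm1 and Mgst1, against 30 of 17312 genes.

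Markers of other cell types also separated these groups. The mean log2 CPM of 7 macrophage markers was 4.17 to 4.33 in IR_iEV_4d and 3.85 to 4.05 in IR_4d libraries. That of 4 endothelial markers was 3.62 to 4.03 in IR_iEV_4d and 3.44 to 3.58 in IR_4d libraries. Parotid, adipocyte and sublingual levels, given above, overlapped between these groups. The part of these shifts in the antioxidant genes was not tested.

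The groups did not overlap in 15 of the 34 genes in that comparison, 44.1% against 14.2% of all genes. Of these, 13 were higher in IR_iEV_4d (38.2%, against 7.31% of all genes). Nfe2l2 and Gclc were the 2 that were lower (5.88%, against 6.92% of all genes), with log2 changes of -0.16 ± 0.08 (edgeR adjusted p = 0.727) and -0.31 ± 0.28 (edgeR adjusted p = 0.857). Neither was called, and the share of genes lower without overlap was near that of all genes. These genes share libraries, so they are not independent of each other.

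All 6 glutathione transferases, which join glutathione to electrophiles, had positive log2 changes in IR_iEV_4d against IR_4d, and 5 of them did not overlap. The 6 peroxiredoxins were all positive too, 1 of them, Prdx1, without overlap. Mgst1, a microsomal transferase, had 21.5, 30.4 and 15.6 CPM in IR_iEV_4d, 11.6, 10.8 and 13.9 CPM in IR_4d, 13.7, 17.5 and 13.9 CPM in IR_iEV_30d, 9.42, 12.8 and 11.9 CPM in IR_30d and 13.9, 14.8 and 14.8 CPM in NT libraries. IR_iEV_4d lay above IR_4d and NT alike, with a log2 change of 0.90 ± 0.19 against IR_4d that had the lowest p of the 34 genes (edgeR adjusted p = 0.231). Without IR_iEV_4d replicate 3 it was 1.10 and was called (edgeR adjusted p = 0.0432).

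Gstm1 belongs to the mu class, whose members resemble each other closely, so reads may be split between Gstm1 and Gstm2. Gstm1 had 71.2, 76.3 and 56.8 CPM in IR_iEV_4d, 34.4, 36.4 and 34.1 CPM in IR_4d, 44.3, 63.5 and 50.0 CPM in IR_iEV_30d, 36.3, 44.2 and 33.9 CPM in IR_30d and 71.2, 35.5 and 38.1 CPM in NT libraries. IR_iEV_4d lay wholly above IR_4d, with a log2 change of 0.96 ± 0.23 (edgeR adjusted p = 0.402), and 1 NT library stood as high as IR_iEV_4d. Gstm1 was called by DESeq2 (adjusted p = 0.00647) and in an edgeR fit of these 2 groups alone (adjusted p = 0.0298). Gsta4 was higher by 0.54 ± 0.17 (edgeR adjusted p = 0.571) and Gstm2 by 0.31 ± 0.12 (edgeR adjusted p = 0.652).

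Gpx4, the peroxidase that reduces lipid hydroperoxides in membranes, had the second lowest p on day 4. It had 96.6, 96.3 and 75.1 CPM in IR_iEV_4d, 65.5, 72.4 and 68.4 CPM in IR_4d, 87.4, 84.0 and 91.2 CPM in IR_iEV_30d, 71.7, 81.4 and 77.3 CPM in IR_30d and 77.0, 72.8 and 76.5 CPM in NT libraries. On each day the iEV libraries lay above those of irradiation alone, with log2 changes of 0.38 ± 0.09 on day 4 (edgeR adjusted p = 0.361) and 0.19 ± 0.09 on day 30 (edgeR adjusted p = 0.402). Without IR_iEV_4d replicate 3 the day 4 change was 0.49 and was called (edgeR adjusted p = 0.0432). Gpx4 has a named pseudogene to which its reads may also map.

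Nqo1, Txnrd1, Cat and Prdx1, given above in every library, were also higher in IR_iEV_4d than in IR_4d without overlap. The log2 changes of Nqo1 and Txnrd1 were 1.37 ± 0.39 (edgeR adjusted p = 0.462) and 0.28 ± 0.09 (edgeR adjusted p = 0.542). Those of Cat and Prdx1 were 0.24 ± 0.12 (edgeR adjusted p = 0.747) and 0.14 ± 0.08 (edgeR adjusted p = 0.802). Gclm had a change of 0.27 ± 0.14 and Srxn1 one of 0.11 ± 0.14, both with overlapping groups. Keap1 had a change of 0.04 ± 0.09, with overlapping groups.

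The largest day 4 changes belonged to genes that varied most between libraries, singled out after their values were seen. Gpx2 had 14.9, 11.6 and 11.0 CPM in IR_iEV_4d, 5.17, 5.01 and 3.32 CPM in IR_4d, 2.78, 8.39 and 3.36 CPM in IR_iEV_30d, 3.56, 7.66 and 3.50 CPM in IR_30d and 13.8, 5.16 and 3.72 CPM in NT libraries, and its log2 change was 1.47 ± 0.54 (edgeR adjusted p = 0.657). NT replicate 1 reached the level of IR_iEV_4d. Gpx3 overlapped between the groups, with the values given above, and Sod3 had 4.06, 12.0 and 3.24 CPM in IR_iEV_4d and 3.73, 2.23 and 3.25 CPM in IR_4d.

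Gpx3 and Sod3 were both highest in IR_iEV_4d replicate 2. That library also had the highest adipocyte level, 5.16, and the highest skeletal muscle level, 3.51, where the other 14 libraries lay between -2.74 and -1.54. Within IR_4d, Gpx3 was highest in replicate 3, which had the highest adipocyte level of that group, 3.71. The log2 changes were 1.07 ± 0.56 for Gpx3 (edgeR adjusted p = 0.784) and 1.07 ± 0.44 for Sod3 (edgeR adjusted p = 0.684), and without IR_iEV_4d replicate 2 they were 0.13 and 0.24. With the 6 sublingual-rich libraries left out, replicate 2 among them, IR_iEV_4d kept only replicate 1 and IR_4d only replicate 3. In that fit Gpx3 turned to -0.09 and Sod3 was 0.30. The part of adipose and muscle tissue in these levels was not tested.

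Single libraries also moved many of the 34 genes together. NT replicate 1 was the highest of its group in 24 of the 34 genes (70.6%), against 37.6% of all genes. IR_iEV_4d replicate 3 was the lowest of its group in 24 of the 34, against 5260 of all 16042 genes. Replicate 2 of IR_iEV_4d was the highest in 18 (52.9%, against 36.2% of all genes). IR_30d replicate 2 was the highest of its group in 20 of the 34 genes (58.8%, against 35.7% of all genes). Of these libraries, NT replicate 1 and IR_iEV_4d replicates 2 and 3 were among the 6 high in sublingual markers.

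**Figure D4:**
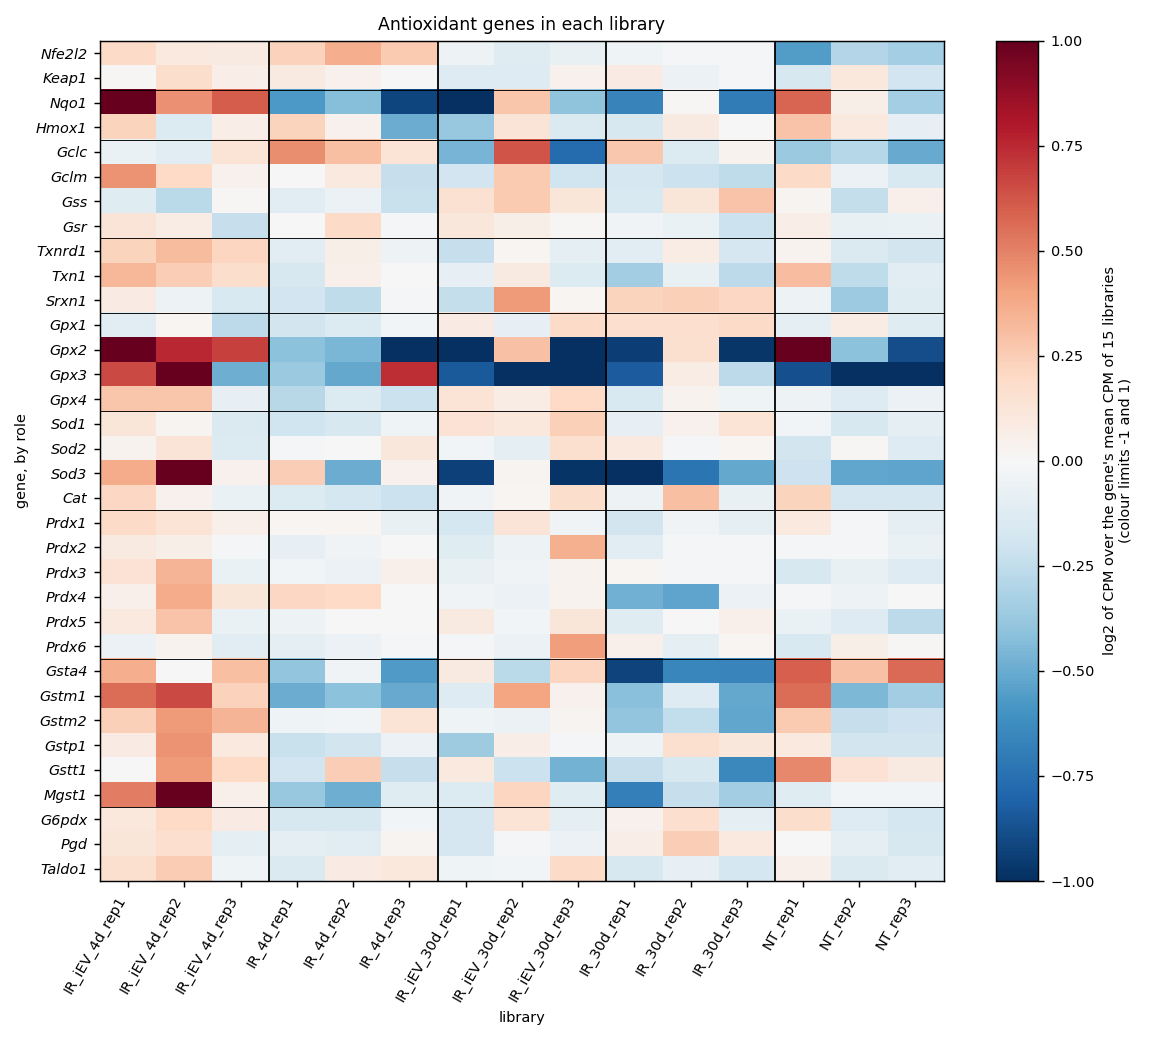
Log2 ratio of each gene's CPM to its mean over the 15 libraries, with genes in rows by role and libraries in columns from IR_iEV_4d on the left to NT on the right, and colours limited to -1 and 1. The IR_iEV_4d columns are mostly red for the transferases, Gsta4 is darkest blue in IR_30d, and NT replicate 1 is redder than its 2 group mates, being highest in 24 of 34 genes.

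On day 30 the same contrast had a median nearer to 0 and mixed direction. Between IR_iEV_30d and IR_30d, 19 of the 34 log2 changes were positive and the median was 0.08, against -0.0096 over all genes. Without IR_iEV_30d replicate 2 the median was 0.01. edgeR called 0 of the 34 genes, where it called 0.798% of all genes. An unadjusted p under 0.05 was reached by 4 of them, against 2066 of all 16042 genes. DESeq2 called 1, Gsta4, against 412 of 13257 genes. The groups did not overlap in 10 genes, 29.4% against 19.6% of all genes, of which 7 were higher (20.6%, against 8.68%) and 3 lower (8.82%, against 11%). Marker levels separated these groups too: the granular convoluted tubule level was 11.7 to 12.2 in IR_iEV_30d and 12.8 to 12.9 in IR_30d libraries, and the macrophage level was 4.00 to 4.55 in IR_iEV_30d and 4.62 to 4.97 in IR_30d libraries. The level of 5 T cell markers was -1.69 to -1.40 in IR_iEV_30d and -2.85 to -2.12 in IR_30d libraries. The part of these shifts in the gene changes between IR_iEV_30d and IR_30d, that of Gsto1 included, was not tested.

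Gsta4 came closest to the threshold on day 30. Its log2 change in IR_iEV_30d against IR_30d was 0.77 ± 0.18 (edgeR adjusted p = 0.0505), and it was called in 6 of 14 alternative settings, with adjusted p from 0.00459 to 0.269 in those edgeR and DESeq2 fits. Because IR_30d enters this comparison and that with NT, the fall in IR_30d and the higher level in IR_iEV_30d rest in part on the same 3 libraries. Against NT itself, the change was -0.46 ± 0.17 in IR_iEV_30d (edgeR adjusted p = 0.25) and -0.27 ± 0.17 in IR_iEV_4d (edgeR adjusted p = 0.466), so that iEV libraries were below NT in the fit without being called.

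Gstm2, a second mu class transferase, had the next lowest p on day 30. It had 26.8, 30.6 and 28.8 CPM in IR_iEV_4d, 22.1, 22.3 and 25.0 CPM in IR_4d, 22.1, 21.9 and 23.2 CPM in IR_iEV_30d, 17.3, 19.2 and 15.9 CPM in IR_30d and 27.2, 19.4 and 19.7 CPM in NT libraries. The iEV groups lay above the irradiated group of their day, and the day 30 change was 0.36 ± 0.12 (edgeR adjusted p = 0.213). Gstm1 and Mgst1 did not overlap on day 30 either, with log2 changes of 0.46 ± 0.23 (edgeR adjusted p = 0.438) and 0.40 ± 0.19 (edgeR adjusted p = 0.4). In all, 5 of the 34 genes were higher with iEVs without overlap on both days (14.7%, against 0.723% of all genes): Gpx4, Gsta4, Gstm1, Gstm2 and Mgst1.

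The largest fall between IR_iEV_30d and IR_30d among the 34 genes was that of Gpx3. Its log2 change was -0.76, without overlap of the groups, and it was not called. Several other genes given in every library had estimates of smaller size. Nfe2l2 had a log2 change of -0.05 ± 0.08, Keap1 of -0.07 ± 0.09, Nqo1 of 0.09 ± 0.40 and Txnrd1 of -0.03 ± 0.09. Gclm had a change of 0.18 ± 0.14 and Srxn1 of -0.13 ± 0.14. Gclc had a change of -0.14 ± 0.28 (edgeR adjusted p = 0.877), and without IR_iEV_30d replicate 2 it was -0.67 and was called as lower (edgeR adjusted p = 0.0202).

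The difference between the iEV changes of the 2 days was tested directly, as an interaction. None of the 34 genes was called by edgeR, where 0.125% of all genes were. DESeq2 called 0 of them, against 114 of 14880 genes. An unadjusted p under 0.05 was reached by 6 of them, against 1452 of all 16042 genes. Pgd and Gstp1 had the lowest p, with differences of -0.34 ± 0.12 (edgeR adjusted p = 0.402) and -0.54 ± 0.19 (edgeR adjusted p = 0.403) on the log2 scale. For Nfe2l2 the difference was 0.11 ± 0.11 and for Gsta4 0.23 ± 0.25, so the larger count of positive changes on day 4 is not shown, gene by gene, to differ from that on day 30.

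A further 70 genes of the same pathways, which are not among the 34, were listed, and 65 of them passed the filter. Of the 65, 1 was called higher and 0 lower in IR_4d against NT (1.54%, against 1.4% of all genes), and 4 higher and 2 lower in IR_30d against NT (9.23%, against 4.48%). In IR_iEV_4d against IR_4d 0 were called (against 0.0312% of all genes), and in IR_iEV_30d against IR_30d 0 higher and 1 lower (1.54%, against 0.798%). In IR_iEV_4d against IR_4d 10 of the 65 had an unadjusted p under 0.05, against 1093 of all 16042 genes. DESeq2 called 1 of the 65, against 30 of 17312 genes. In that day 4 comparison 50 of the 65 changes were positive (76.9%, against 49.2% of all genes), with a median of 0.12. On day 30, in IR_iEV_30d against IR_30d, 46 of the 65 were positive (70.8%, against 48.5% of all genes), with a median of 0.10.

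Ephx1, the microsomal epoxide hydrolase, showed the largest rise among the genes called. It had 306, 296 and 272 CPM in IR_iEV_4d, 273, 274 and 259 CPM in IR_4d, 198, 181 and 244 CPM in IR_iEV_30d, 179, 188 and 192 CPM in IR_30d and 51.4, 58.8 and 55.4 CPM in NT libraries. Every irradiated library lay above every NT library, and the log2 change against NT was 2.28 ± 0.10 in IR_4d (edgeR adjusted p = 2.53e-10) and 1.76 ± 0.10 in IR_30d (edgeR adjusted p = 4.44e-08). Ephx1 overlaps another annotated gene on its own strand.

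Gsto1, an omega class transferase with dehydroascorbate reductase activity, rose on day 30 but not on day 4. It had 44.8, 49.3 and 49.0 CPM in IR_iEV_4d, 47.7, 45.3 and 44.5 CPM in IR_4d, 61.5, 97.5 and 67.9 CPM in IR_iEV_30d, 117, 149.9 and 139 CPM in IR_30d and 44.7, 57.6 and 54.9 CPM in NT libraries. The IR_30d libraries lay above all 12 others. In IR_30d the log2 change against NT was 1.37 ± 0.15 (edgeR adjusted p = 4.58e-05), and in IR_iEV_30d it fell against IR_30d by 0.84 on the log2 scale (SE 0.14, edgeR adjusted p = 0.0144). The call in IR_iEV_30d was lost in 4 of 6 fits that left out 1 library, those without IR_30d replicate 2 or 3 or IR_iEV_30d replicate 1 or 3, with adjusted p up to 0.104 in edgeR.

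Of the remaining genes called in IR_30d against NT, Txnrd3 and Blvrb had the lowest p. Txnrd3, a thioredoxin reductase with a glutaredoxin domain, had 3.17, 3.56 and 3.50 CPM in IR_30d and 5.96, 4.97 and 4.88 CPM in NT libraries, and fell by 0.63 on the log2 scale (SE 0.15, edgeR adjusted p = 0.0261). Blvrb, biliverdin reductase B, had 10.4, 9.18 and 10.1 CPM in IR_30d and 7.19, 7.29 and 7.36 CPM in NT libraries, and rose by 0.44 ± 0.11 (edgeR adjusted p = 0.0295). In both genes the groups did not overlap. The Txnrd3 call was lost when NT replicate 1 or any 1 of the 3 IR_30d replicates was left out, with adjusted p up to 0.116 in edgeR. The Blvrb call was lost in 5 of 6 such fits, all but that without IR_30d replicate 2, with adjusted p up to 0.112 in edgeR.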

How the data were processed

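Bulk RNA was measured in 15 libraries, 3 in each of 5 groups taken from the labels. The values are whole-number read counts per gene symbol deposited by the authors. The submitters' processing notes name TopHat, HTSeq, DESeq2 and the genome build GRCm39. Their versions, the annotation, the strand setting and the treatment of multi-mapping reads are not given in the sources used here. Of 21013 symbols, 15 had no count.

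The tests on these counts used edgeR 4.0.16 (R 4.3.3) with TMM scaling and filterByExpr (minimum count 10, minimum total 15), which kept 16042 genes. The test was the robust quasi-likelihood F test, and 1 model covered every library, leaving 10 residual degrees of freedom. Benjamini-Hochberg adjustment ran over all genes, separately for the 8 comparisons, and calls needed an adjusted p-value under 0.05. A standard error (SE) is the absolute log2 change divided by the square root of F. The steps were tested on simulated data. Transcript lengths are from the GENCODE annotation of the preceding build. Pseudogenes or overlapping genes on the opposite strand make the counts of 4 and 6 of the 34 genes uncertain. Gclm, 1 of the 34, also overlaps another annotated gene on its own strand.

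Values in every library are given for the genes called, for Nfe2l2, Keap1, Nqo1, Gclc, Gclm, Txnrd1 and Srxn1, and for the gene of each role with the highest mean CPM. Where none was called, the 2 genes with the lowest p are named. The genes and lists were chosen with earlier results of these data known. Alternatives were DESeq2 1.42.0, size factors of DESeq2 within edgeR, testing without a filter, keeping only genes averaging 5 CPM or more, a fit of the compared groups alone, the replicate number as a block, sublingual and adipocyte levels as covariates, leaving out the 6 libraries with a sublingual level above 2, and dropping every library once. The replicate numbers of the labels did not pair libraries.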

Additional observations from a re-analysis of the deposited data

Results flagged for a closer look

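The comparison of IR_30d with IR_4d equals the irradiation change on day 30 minus that on day 4, since both use the same NT libraries. In that edgeR test, 1 of the 34 antioxidant genes and 7 of the 65 other pathway genes differed between the days, where 6.81% of all genes did. Nfe2l2 had a log2 difference of -0.316. Among the other pathway genes, Glrx, a glutaredoxin, had 0.6035, Ftl1, the ferritin light chain, had 0.3546, Gsto1 had 1.561 and Chac1, which degrades glutathione, had 1.702. Idh1, a cytosolic isocitrate dehydrogenase that yields NADPH, had -0.5571, Ephx1 had -0.5278 and Msrb3, a methionine sulfoxide reductase, had -0.4714. These genes other than Ephx1 and Gsto1 are named because of this difference. The calls of Glrx, Ftl1, Idh1, Chac1 and Msrb3 were each lost when 1 of several libraries was left out, and Ftl1 has named pseudogenes.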

How the results depend on the processing

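With 3 libraries a group and 6 of 15 libraries high in sublingual markers, counts of calls are small and move with the setting. Of the 34 genes, 2 were called in IR_4d against NT, 1 with marker levels as covariates and 1 to 2 with 1 library left out. With those covariates 82 of all 16042 genes were called. The fits that gave 1 with a library left out called from 119 of 16396 to 386 of 16383 genes. In IR_30d against NT 2 were called, 1 without the libraries high in sublingual markers. In IR_iEV_4d against IR_4d 0 were called, 2 with DESeq2, 1 in a fit of those groups alone and 0 to 2 with 1 library left out. Over all genes, DESeq2 called 30 of 17312 and the fit of those groups alone 3 of 15091. The fit without IR_iEV_4d replicate 3, which gave 2 of the 34, called 7 of 16390. In IR_iEV_30d against IR_30d 0 were called, 1 with DESeq2 size factors, DESeq2, no filter or a mean of at least 5 CPM, 2 with the sublingual-rich libraries left out and 0 to 2 with 1 left out. Over all genes, 130 of 16042 were called with size factors, 412 of 13257 with DESeq2 and 133 of 20998 with no filter. The fit without IR_iEV_30d replicate 2, which gave 2 of the 34, called 192 of 16392. At 5 CPM 134 of 9853 were called, and 317 of 16848 with the sublingual-rich libraries left out. In IR_iEV_4d against NT 1 was called, 2 with size factors or at 5 CPM, 5 with DESeq2 and 1 to 6 with 1 library left out. The 6 came without IR_iEV_4d replicate 3, where 438 of 16390 genes were called. Without NT replicate 1 it was 5, where 792 of 16383 genes were called. In IR_iEV_30d against NT 0 were called, 1 with DESeq2 or at 5 CPM, where 410 of 15285 and 148 of 9853 genes were. In IR_30d against IR_4d 1 was called, 4 with DESeq2, 2 at 5 CPM, 5 in the fit of those groups alone and 0 to 1 with 1 library left out. The fits giving 0, each with a library left out, called from 536 of 16420 to 676 of 16401 genes. Of the other pathway genes, IR_4d against NT gave 1 call, 4 with DESeq2, 2 in its own fit and 1 to 2 with 1 library left out. IR_30d against NT gave 6, 2 in its own fit, 3 without the sublingual-rich libraries and 2 to 5 with 1 left out. IR_iEV_4d against IR_4d gave 0, and 1 with DESeq2. IR_iEV_30d against IR_30d gave 1, 0 in its own fit or with covariates, 2 without those libraries and 0 to 1 with 1 left out. IR_iEV_4d against NT gave 5, 1 in its own fit or with covariates and 1 to 4 with 1 left out. IR_iEV_30d against NT gave 1, 4 with DESeq2, 2 without those libraries and 1 to 2 with 1 left out. IR_30d against IR_4d gave 7, 4 with no filter, 13 in its own fit, 3 with covariates and 2 to 5 with 1 left out. The difference between the days gave 0, 1 with DESeq2 and 0 to 1 with 1 left out. Calls over all genes moved with the setting too. In IR_30d against IR_4d they were 1461 of 16906 with DESeq2, 768 of 9853 at 5 CPM and 2280 of 15020 in its own fit. In IR_iEV_4d against NT they were 383 of 16042 with size factors, 333 of 9853 at 5 CPM and 843 of 16095 with DESeq2. DESeq2 called 448 of 16095 in IR_4d against NT. The own fit called 793 of 15154 in IR_30d against NT. The cause of these moves was not tested.

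The replicate numbers of the labels showed no pairing: of 30 pairs with the same number, 5 correlated above 0.1 in their deviations from the group means, with a range of -0.29 to 0.19, and 3 of 15 libraries correlated better on average with their own number than with the others. With the replicate block the counts of the 34 genes did not change, and the other pathway genes gave 3 calls in IR_iEV_30d against NT and 1 in the difference between the days.

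Over the 34 genes and 8 comparisons, 254 of 3954 log2 changes under an alternative had the opposite sign, in 0 of them with a call in either fit. Among the changes printed, covariates turned Txnrd1 to -0.031 and Srxn1 to -0.20 and Sod3 to -0.53 in IR_4d against NT, Srxn1 to -0.042 in IR_iEV_4d against IR_4d, Nqo1 to -0.11 in IR_iEV_30d against IR_30d, and Gsta4 to 0.046 in IR_iEV_4d against NT and -0.092 in the difference between the days. Without the libraries high in sublingual markers, Keap1 turned to -0.0086 and Gpx3 to -0.088 in IR_iEV_4d against IR_4d, where each group kept 1 library. In the same setting Nqo1 turned to -0.31 in IR_iEV_30d against IR_30d, and Gpx2 to 0.13 in IR_30d against NT. With 1 library left out, Gpx2 ran from -1.07 to 0.035 in IR_4d and from -1.09 to 0.15 in IR_30d, each against NT, Gclm ran from -0.10 to 0.070 and Srxn1 from -0.059 to 0.087 in IR_4d against NT, Txnrd1 from -0.048 to 0.097 in IR_30d against NT, and Keap1 from -0.0089 to 0.075 in IR_iEV_4d against IR_4d. In IR_iEV_30d against IR_30d, Nqo1 ran from -0.32 to 0.39, Gclc from -0.67 to 0.12, Txnrd1 from -0.090 to 0.044 and Srxn1 from -0.32 to 0.017.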
